A study of Mus musculus with 151 samples.

Results

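The proteasome subunit genes were followed through the ovary and its germ cells in mice conceived naturally (Natural) or by in vitro fertilization (IVF). The members were all gene names made of Psm, 1 letter from a to g, a number and at most 1 further letter, and 49 of the 35976 gene names matched, the same 49 in each of the 7 count tables. They comprised 8 alpha and 8 beta subunits of the 20S core, 3 immunoproteasome subunits, 6 ATPases and 14 other genes of the 19S cap (Psmd5, Psmd9 and Psmd10 among them encode chaperones of its assembly), 5 activator genes, 1 inhibitor and 4 assembly chaperones.

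The proteasome is the main protease of the cytosol and nucleus and degrades proteins that carry ubiquitin chains. Its barrel, the 20S core, is built of stacked rings of alpha and beta subunits, and only the beta subunits encoded by Psmb5, Psmb6 and Psmb7 cut peptide bonds. The 19S cap binds ubiquitin chains (Psmd4 and the receptor Adrm1), removes them (Psmd14), and unfolds the substrate with its ring of ATPases (Psmc1 to Psmc6). Interferon induces Psmb8, Psmb9 and Psmb10, which take the places of Psmb5, Psmb6 and Psmb7 in newly assembled cores (the immunoproteasome) and change the peptides made for MHC class I. Psme1 and Psme2 form the PA28 cap in the cytosol, Psme3 forms PA28-gamma in the nucleus, and Psme4 encodes the activator PA200. In germ cells proteasomes are needed for meiotic progression, and Psma8 encodes an alpha subunit known from meiotic germ cells, whereas Psmb11 is known from the thymic cortex.

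Natural F1 females came from matings of CF-1 females in their own cycle with B6/SJL males and developed without embryo transfer. IVF F1 females came from eggs of superovulated CF-1 females and B6/SJL sperm, with culture to the blastocyst and transfer to pseudopregnant CF-1 recipients, so superovulation, culture and transfer all stand on the IVF side. Ovaries were sequenced at E18.5 (4 Natural, 6 IVF), 12 weeks (4 Natural, 5 IVF) and 39 weeks (5 Natural, 5 IVF). At 39 weeks 1 Natural ovary was also labelled 40 weeks. The methods give RNA from a whole gonad at E18.5 and from a part of each frozen adult ovary. Pools of female E13.5 primordial germ cells (PGCs) gave 4 Natural and 5 IVF libraries. Single oocytes were sequenced at 12 weeks (36 Natural, 40 IVF) and 39 weeks (9 Natural, 10 IVF), and cumulus cells at 12 weeks (5 Natural, 5 IVF). The adult oocytes and cumulus cells came from females superovulated shortly before collection, and adult cohorts were delivered by caesarean section and fostered. The methods give both E18.5 and E19.5 for the fetal IVF ovaries, so conception and 1 day of fetal age cannot be told apart there. Total counts ranged from 839781 in a single oocyte to 43363799 in a 12-week ovary. The 8 oocyte markers summed to medians of 23571 to 30434 CPM in the oocyte tables, with 39-week Natural 6 and 9 apart at 2474 and 4488 CPM, germ cell markers to medians of 2958 and 4316 CPM in PGCs, and granulosa markers to medians of 1334 to 2414 CPM in adult ovaries and cumulus cells. Oviduct and epithelium markers ran from 35.6 to 8831 CPM over single adult ovaries. The labels name samples and not animals, so the p-values measure the spread between these samples.

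The catalytic subunits carry the comparison of constitutive and immunoproteasome genes. For that reason the upstream sequences of Psmb8, Psmb9, Psmb6 and Psmb5 are shown, all of which hold a marked motif. Psmb8 (chromosome 17, 34197721 to 34201454, plus strand) and Psmb9 (chromosome 17, 34181987 to 34187764, minus strand) stand on either side of Tap1 in the MHC, and Psmb10 lies apart on chromosome 8. Psmb5 (chromosome 14, 54614119 to 54618022, minus strand) and Psmb6 (chromosome 11, 70525367 to 70527858, plus strand) belong to the constitutive core. The lines give up to 250 bases 5′ of the RefSeq transcript start on the gene's own strand (GRCm38.p6). For Psmb8, Psmb9 and Psmb5 that start lies inside the span of the gene annotation, and the Psmb9 stretch holds 225 bases. Capitals mark an interferon-gamma activated site core (TTCNNNGAA) in Psmb8 and a CCAAT box read on the other strand in Psmb9. In Psmb6 and Psmb5 they mark an antioxidant response core (TGACNNNGC). The upstream stretch of Psmb10 held none of these motifs and is not shown, nor is that of Psmb7.
Psmb8, chr17:34197945-34198194, plus strand: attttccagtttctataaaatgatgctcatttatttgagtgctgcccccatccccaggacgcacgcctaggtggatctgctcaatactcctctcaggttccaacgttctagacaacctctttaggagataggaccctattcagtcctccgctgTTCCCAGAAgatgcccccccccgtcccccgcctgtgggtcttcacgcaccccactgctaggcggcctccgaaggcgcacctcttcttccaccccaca
Psmb9, chr17:34187331-34187555, minus strand: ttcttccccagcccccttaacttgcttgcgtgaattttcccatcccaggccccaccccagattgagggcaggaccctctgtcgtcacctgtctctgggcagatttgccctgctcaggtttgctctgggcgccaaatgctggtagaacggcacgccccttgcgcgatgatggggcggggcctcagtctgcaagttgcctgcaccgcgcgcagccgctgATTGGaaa
Psmb6, chr11:70525107-70525356, plus strand: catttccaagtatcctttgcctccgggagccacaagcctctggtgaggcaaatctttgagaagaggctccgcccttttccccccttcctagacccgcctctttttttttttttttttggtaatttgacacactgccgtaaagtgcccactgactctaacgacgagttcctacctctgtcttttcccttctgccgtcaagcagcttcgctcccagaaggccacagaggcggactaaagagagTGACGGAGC
Psmb5, chr14:54617996-54618245, minus strand: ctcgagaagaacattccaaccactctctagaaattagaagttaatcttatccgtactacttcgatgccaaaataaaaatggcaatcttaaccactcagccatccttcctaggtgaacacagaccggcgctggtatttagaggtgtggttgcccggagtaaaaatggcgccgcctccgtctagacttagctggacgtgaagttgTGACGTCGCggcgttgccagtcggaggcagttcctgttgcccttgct

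Of the 49 members, 41 had a RefSeq promoter window running from 250 bases before to 50 bases after the start. On either strand TGACNNNGC stood in 6 of them (Psmb5, Psmb6, Psmc6, Psmd9, Psmd12 and Psme4), against 12.4% of all 32851 windows. TTCNNNGAA stood in 3 (Psmb8, Psmd2 and Psmg1), against 8.3% of all windows, and the interferon-stimulated response core (GAAA, any 2 bases, GAAA) in 5 (Psmb3, Psmd4, Psmd9, Psme1 and Psmg4), against 3.44%. CCAAT stood in 14, against 37.4%. These are matches of letters and describe no binding.

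Levels below are CPM (reads of a gene scaled to a library total of 1000000) after TMM scaling, which corrects library sizes for composition, unless stated otherwise. IVF was compared with Natural in each table by edgeR's quasi-likelihood test, and a gene is called at a Benjamini-Hochberg adjusted p below 0.05 over all genes tested in that table. Fold changes are on the log2 scale and positive where IVF is higher.

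At E18.5, transcripts of nearly the whole complex were lower in IVF than in Natural ovaries by the sign of the fitted fold change. The sign was negative for 46 of the 48 tested subunits, with a median of -0.29 on the log2 scale against 0.00 over all 16415 genes. The test called 6 subunits lower (12.5% of those tested, against 2.75% of all genes) and 1 higher (2.08%, against 2.67% of all genes). At an unadjusted p below 0.05, 1 was higher, where 11.9% of all genes were, and 24 were lower, where 12.3% of all genes were, and every IVF ovary was below every Natural ovary for 10 subunits, where 4.33% of all genes were so separated. Every IVF ovary was above every Natural ovary for 1 subunit, where 4.28% of all genes were. The called genes were Psmb6, Psma7, Psmb4, Psmg2, Psmb8 and Psmb10 on the lower side and Psme4 on the higher side. DESeq2 called 16 subunits lower, and leaving out single ovaries moved the 6 to 18 (without Natural 1), 11 (without IVF 3), 3 (without IVF 1 or 5), 2 (without Natural 3), 1 (without IVF 2, 4 or 6) and 0 (without Natural 2 or 4). The call of Psme4 held without Natural 1 or IVF 3 and was lost without each of the 8 other ovaries, while the median over the subunits stayed between -0.33 and -0.22 in all 10 omissions.

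**Figure D1:**
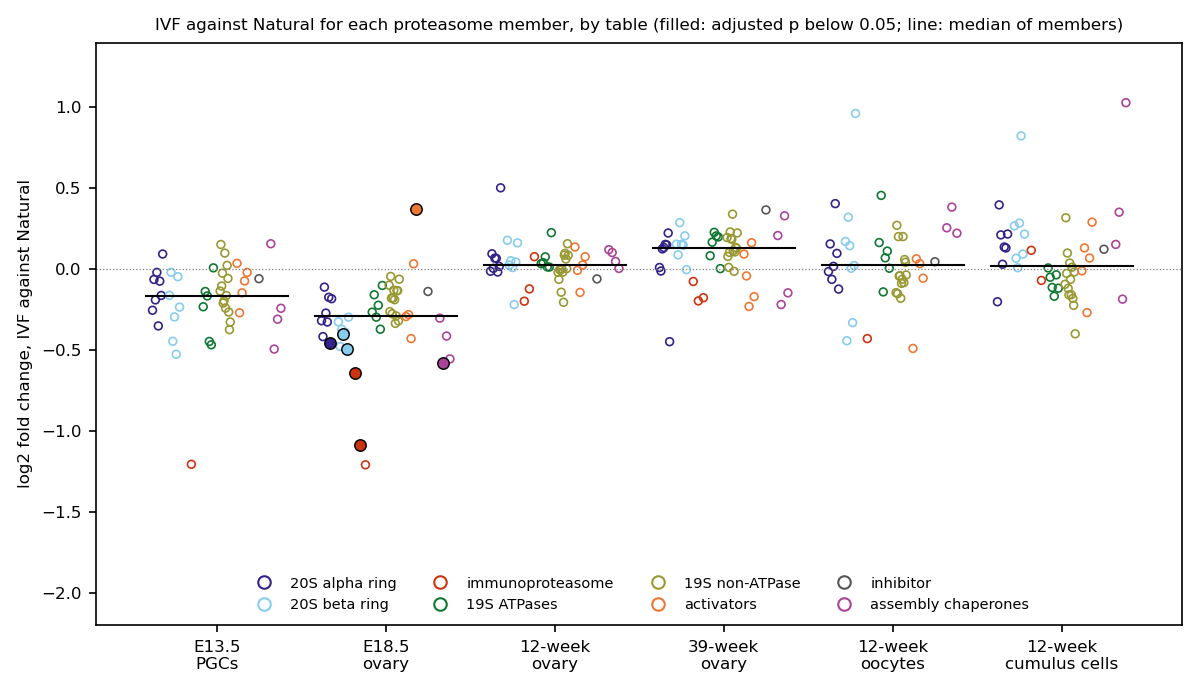
Log2 fold change of each tested proteasome subunit, IVF against Natural, in the 6 tables with replicated tests (edgeR). Each point is 1 subunit, coloured by its place in the complex, lines are medians, and filled points passed an adjusted p below 0.05. At E18.5 46 of 48 points lie below 0, while the other tables have medians between -0.16 and 0.13 and no called subunit.

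In the plot of fold changes by table, nearly all E18.5 points lie below 0, called or not. In the core, Psmb6, the subunit with caspase-like activity, measured 136, 168, 151 and 190 CPM in the 4 Natural ovaries, and 111, 113 and 123 CPM as the lowest, median and highest of the 6 IVF ovaries. The groups did not overlap, and the log2 fold change was -0.49 (SE 0.10, adjusted p = 0.0196, edgeR). Psma7, an outer-ring alpha subunit, measured 114, 134, 136 and 150 CPM in Natural, and 89.8, 96.5 and 109 CPM in IVF (log2 fold change -0.46, SE 0.10, adjusted p = 0.0233, edgeR). Natural 1 was the lowest Natural ovary for both genes and for Psmb4 and Psmg2 as well. Psmb4, a beta subunit without a proteolytic site, measured 152, 177, 179 and 198 CPM in Natural, and 125, 134 and 140 CPM in IVF (log2 fold change -0.40, SE 0.09, adjusted p = 0.0277, edgeR). All 15 tested alpha and beta subunits other than the immunoproteasome genes had a negative sign, and 12 of them had an unadjusted p below 0.05. Psma1, Psma2, Psma4 and Psma5 also had no overlap between groups, but their adjusted p lay between 0.0616 and 0.096.

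The other catalytic subunits followed with less certainty. Psmb5, the chymotrypsin-like subunit, measured 31.6, 36.6, 32.0 and 44.8 CPM in Natural, and 22.3, 28.3 and 33.8 CPM in IVF (log2 fold change -0.39, SE 0.15, adjusted p = 0.131, edgeR). Psmb7, the trypsin-like subunit, measured 58.2, 68.8, 58.7 and 64.8 CPM in Natural, and 43.8, 49.9 and 61.2 CPM in IVF (log2 fold change -0.30, SE 0.11, adjusted p = 0.13, edgeR). For both genes the groups overlapped, through IVF 1 for Psmb5 and IVF 3 for Psmb7.

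The 3 immunoproteasome genes had the largest fitted differences among the subunit groups at E18.5, with a median of -1.09. Psmb8 measured 6.33, 5.99, 4.99 and 4.40 CPM in Natural, and 1.75, 2.23 and 3.65 CPM in IVF, without overlap (log2 fold change -1.09, SE 0.28, adjusted p = 0.0399, edgeR). Psmb10 measured 15.3, 22.8, 19.2 and 25.0 CPM in Natural, and 11.7, 12.3 and 15.8 CPM in IVF (log2 fold change -0.64, SE 0.17, adjusted p = 0.0401, edgeR). IVF 6 exceeded Natural 1 for this gene, and the other 5 IVF ovaries were below all Natural ovaries. Psmb9 measured 3.83, 3.81, 2.59 and 1.28 CPM in Natural, and 0.401, 1.06 and 2.58 CPM in IVF (log2 fold change -1.21, SE 0.46, adjusted p = 0.129, edgeR). These are low levels: the ovaries held 20 to 76 reads of Psmb8 and 4 to 46 reads of Psmb9. Tested without a filter on low counts, Psmb8 and Psmb10 had adjusted p of 0.059 and 0.053. Of 14 genes of antigen presentation and interferon response, all 14 had a negative sign and 3 were called lower, among them B2m, the light chain of MHC class I (-0.82, SE 0.16, adjusted p = 0.0156, edgeR), and H2-K1, a class I heavy chain (-1.32, SE 0.25, adjusted p = 0.0143). Tap1, the peptide transporter between Psmb8 and Psmb9, had -0.42 (SE 0.18, adjusted p = 0.177, edgeR). The 12 tested immune cell markers had a median of -0.04 and none called, with sums of 154 to 251 CPM in Natural and 128 to 319 CPM in IVF ovaries.

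**Figure D2:**
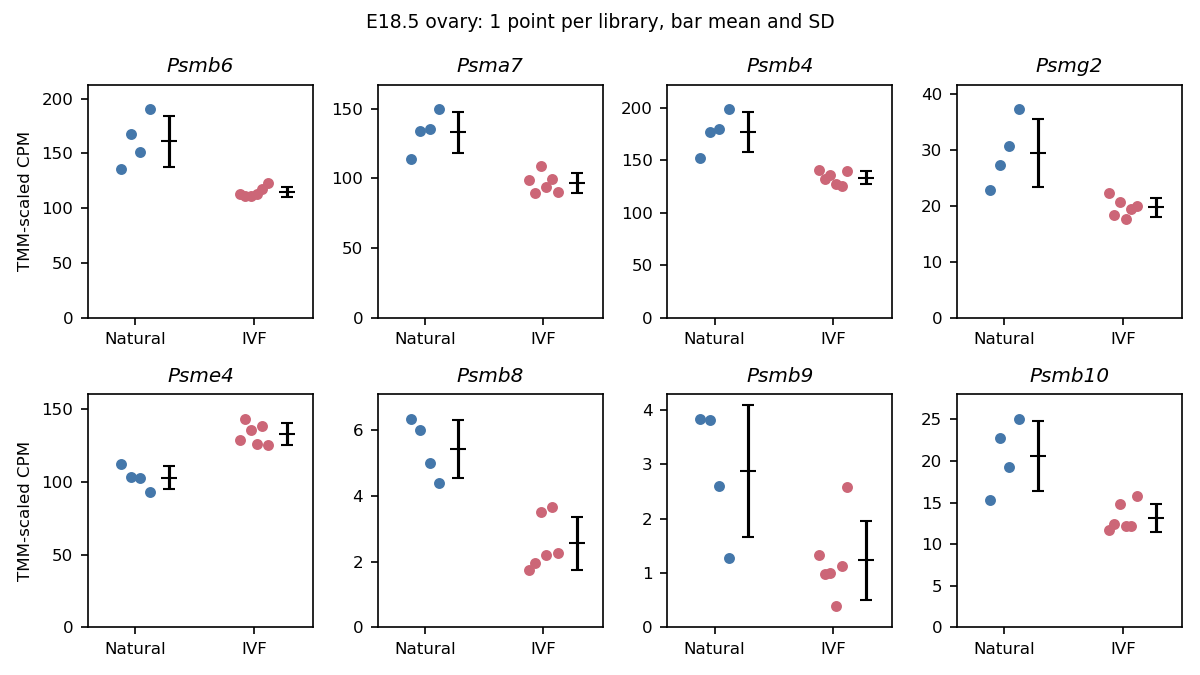
TMM-scaled CPM of the 7 called subunits and of Psmb9 in each E18.5 ovary, Natural (4) and IVF (6), with the mean and SD of each group in black. Psme4 is the panel in which every IVF ovary lies above every Natural ovary, and Psmb9 and Psmb10 are the panels with overlap.

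The activators had both signs. Psme4 measured 112, 103, 102 and 92.8 CPM in Natural, and 125, 132 and 143 CPM in IVF, without overlap (log2 fold change 0.37, SE 0.09, adjusted p = 0.0337, edgeR). Psme3 measured 125, 117, 118 and 108 CPM in Natural, and 102, 120 and 138 CPM in IVF (log2 fold change 0.03, SE 0.10). The PA28 genes measured 109 to 137 CPM in Natural and 94.0 to 119 CPM in IVF for Psme1 (-0.29, SE 0.10, adjusted p = 0.098, edgeR), and 42.7 to 69.9 CPM and 41.8 to 55.4 CPM for Psme2 (-0.28, SE 0.15, adjusted p = 0.264). Psme2 and its copy Psme2b share sequence, so reads could be split between them. The plot of E18.5 values shows Psme4 against the lower subunits in the same ovaries.

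The 19S cap had the sign of the core with smaller values. All 6 ATPases and all 14 Psmd genes, the chaperones of the cap included, had a negative sign, with medians of -0.25 and -0.18, and none was called. Psmd8 was the cap subunit with separate groups (105.6 to 131.5 CPM in Natural, 83.3 to 100.6 CPM in IVF, -0.32, SE 0.10, adjusted p = 0.0744, edgeR). Psmd2, a scaffold subunit of the cap, had -0.13 (SE 0.12), and Psmd11 had -0.05 (SE 0.10). All 4 assembly chaperones had a negative sign, and Psmg2 was called: 22.8, 27.2, 30.7 and 37.2 CPM in Natural, and 17.6, 19.7 and 22.3 CPM in IVF (-0.58, SE 0.14, adjusted p = 0.0361). Outside the matched names, Pomp, the maturation factor of the core, was called lower (-0.69, SE 0.14, adjusted p = 0.018), as was the small cap subunit Sem1, listed as Shfm1 (-0.60, SE 0.11, adjusted p = 0.0151). These were 2 of the 8 other proteasome genes, and Adrm1 had -0.19 (SE 0.15). Of 14 ubiquitin and shuttle genes 2 were called lower, and of 5 regulators of proteasome genes none was called. Nfe2l1, the transcription factor that induces subunits when proteasome activity falls, had 0.06 (SE 0.11).

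Markers of other cell types differed between the same E18.5 ovaries. All 7 tested oocyte markers had a negative sign and 3 were called lower, with sums of 119 to 500 CPM in Natural and 41.1 to 203 CPM in IVF and Oosp1 at 0. All 6 erythroid markers had a positive sign and 2 were called higher, with sums of 599 to 1600 CPM in Natural and 1601 to 4582 CPM in IVF. Their part in the subunit differences was not tested. In whole ovaries, fewer cells of a type and less RNA per cell cannot be told apart.

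The 12-week ovary showed no called subunit in either direction, where 0.00567% of 17628 genes were called lower and none higher. At an unadjusted p below 0.05, 1 subunit was higher (6.21% of all genes) and 1 lower (8.22% of all genes), and the median of 48 subunits was 0.03. These were Psmc6, an ATPase of the cap (0.22, SE 0.10, adjusted p = 0.333, edgeR), and Psmd3, another cap subunit (-0.21, SE 0.09, adjusted p = 0.335). Psmd3 measured 203, 187, 187 and 208 CPM in Natural and 181, 178, 163, 183 and 146 CPM in IVF, so every IVF ovary was lower. It was the 1 subunit so separated, where 3.64% of all genes were, and none was separated the other way, where 2.46% of all genes were. The third smallest p was that of Psma8, at 1.01 to 1.60 CPM in Natural and 1.36 to 3.00 CPM in IVF (0.50, SE 0.31). The immunoproteasome genes overlapped fully. Psmb8 measured 31.5, 41.9, 26.3 and 27.6 CPM in Natural and 28.4, 34.4, 23.1, 34.2 and 26.5 CPM in IVF. Psmb10 measured 42.0, 57.1, 40.6 and 34.9 CPM in Natural and 39.9, 41.5, 37.8, 33.8 and 36.4 CPM in IVF, and Psmb9 8.64 to 12.7 CPM in Natural and 9.62 to 13.2 CPM in IVF. Psmb5, Psmb6 and Psmb7 overlapped as well, at 46.1 to 71.7, 167 to 191 and 59.5 to 77.5 CPM in Natural and 41.4 to 59.0, 148 to 217 and 63.1 to 88.8 CPM in IVF. Among the activators Psme1 measured 156 to 195 CPM in Natural and 174 to 203 CPM in IVF, and Psme4 95.7 to 106 and 98.3 to 113 CPM. IVF 4 was the shallowest of these ovaries, with 2839022 counts. The 8 oviduct and epithelium markers all had a negative sign, with a median of -1.76 and none called. They summed to 3460 to 7717 CPM in Natural and 36.7 to 3079 CPM in IVF, without overlap, and their part in the subunit values was not tested.

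The 39-week ovary also had no called subunit, where 0.0582% of 17186 genes were called higher and 0.204% lower. At an unadjusted p below 0.05, 6 subunits were higher, where 10.4% of all genes were, and none lower, where 8.87% of all genes were, and the median was 0.13 against 0.03 over all genes. The 3 smallest p belonged to Psmd3, Psmb3 and Psmf1. Psmd3 measured 139, 140, 134, 135 and 124 CPM in Natural and 217, 148, 160, 157 and 168 CPM in IVF, without overlap (0.34, SE 0.11, adjusted p = 0.145, edgeR). Psmf1, which encodes the inhibitor PI31, measured 36.5, 34.7, 36.3, 37.4 and 34.9 CPM in Natural and 65.8, 43.8, 39.2, 47.1 and 35.8 CPM in IVF (0.37, SE 0.15, adjusted p = 0.222). IVF 1 was the highest ovary for both genes. Psmb3 had 0.29 (SE 0.10, adjusted p = 0.192). Every IVF ovary exceeded every Natural ovary for 3 subunits (Psmd3, Psma7 and Psmc2), where 2.27% of all genes did, and none was separated the other way, where 2.85% of all genes were. The 8 oviduct and epithelium markers all had a positive sign in this comparison, with a median of 2.99 and none called. Their sums overlapped, at 35.6 to 213 CPM in Natural (median 62.9) and 60.9 to 8831 CPM in IVF (median 88.3). Their part was not tested here either.

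The immunoproteasome genes at 39 weeks all had a negative sign, with a median of -0.18 and none called. Psmb8 measured 42.9, 35.8, 27.3, 35.0 and 24.0 CPM in Natural and 37.2, 33.5, 25.8, 28.0 and 19.6 CPM in IVF. Psmb10 measured 36.5 to 48.5 CPM in Natural and 30.5 to 48.0 CPM in IVF, and Psmb9 7.72 to 15.8 and 8.78 to 12.2 CPM. The ranges overlapped for all 3. Psmb5, Psmb6 and Psmb7 measured 38.6 to 76.4, 126 to 168 and 62.3 to 77.9 CPM in Natural and 52.0 to 77.1, 156 to 213 and 63.9 to 75.3 CPM in IVF. Psme4 measured 108 to 148 CPM in Natural and 88.5 to 137 CPM in IVF, and the groups overlapped. Psme1 measured 182 to 226 and 179 to 301 CPM, Psme2 68.7 to 99.1 and 69.3 to 95.5 CPM, and Psme3 96.6 to 132 and 114 to 148 CPM in Natural and IVF.

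Whether the IVF difference itself changed with age was tested as an interaction in a joint fit of all 29 ovaries. Between 12 weeks and E18.5 the IVF effect was more positive for 47 of 48 subunits by sign, with a median of 0.36, and none was called, where 0.274% of all genes were called higher and 0.0406% lower. At an unadjusted p below 0.05, 24 subunits were higher, where 8.92% of all genes were, and none lower, where 5.1% of all genes were. The smallest adjusted p were 0.084 for Psma7 (0.50, SE 0.13), 0.0877 for Psmb6 (0.56, SE 0.14) and 0.088 for Psmd8 (0.50, SE 0.13, edgeR). This contrast holds the same E18.5 ovaries as the comparison above. DESeq2 called 5 subunits in it, and 2 were called by edgeR without 12-week IVF 2. Between 39 and 12 weeks 1 subunit was called higher, where 1.96% of all genes were, and none lower, where 0.75% of all genes were. The called gene was Psmd3 (0.54, SE 0.15, adjusted p = 0.0489), lower in IVF at 12 weeks and higher at 39 weeks. Without 39-week IVF 1 its value was 0.46 with an adjusted p of 0.12 (edgeR). The oviduct and epithelium markers had the same change of sign, negative at 12 weeks and positive at 39 weeks. Luteal markers went the other way by median sum, at 16408 CPM in Natural and 22207 CPM in IVF at 12 weeks. At 39 weeks these medians were 29996 and 16147 CPM, and the ranges overlapped at both ages. The part of these markers in the Psmd3 value was not tested. The count of 1 fell to 0 without 20 of the 29 ovaries in turn, and was 2 without 39-week IVF 5.

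In Natural ovaries the level of many subunits rose between E18.5 and 12 weeks. In the joint fit 27 of 48 subunits were higher at 12 weeks than at E18.5, where 25.3% of all genes were, and 3 were lower, where 24.3% of all genes were. Psmb8 and Psmb9 had the largest differences among the called subunits. Psmb8 rose from a mean of 5.12 to 31.7 CPM (log2 fold change 2.63, SE 0.24, adjusted p = 1.54e-09, edgeR). Psmb9 rose from 2.73 to 10.5 CPM (1.95, SE 0.35, adjusted p = 4.9e-05). Psmb10 rose from 19.3 to 43.4 CPM (1.17, SE 0.15, adjusted p = 7.3e-07). Their ranges at both ages did not overlap.

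The constitutive catalytic subunits had smaller differences with age. Psmb5 rose from 34.0 to 61.3 CPM (0.85, SE 0.19, adjusted p = 0.000542, edgeR), while Psmb6 (0.25, SE 0.11, adjusted p = 0.0573) and Psmb7 (0.25, SE 0.11, adjusted p = 0.0511) did not pass the test. Among the activators Psme1 rose from 116 to 173 CPM (0.57, SE 0.12) and Psme2 from 54.5 to 93.6 CPM (0.78, SE 0.13, adjusted p = 3.09e-05), Psme2b rose by 1.25 (SE 0.22), and Psme3 (0.10, SE 0.10) and Psme4 (0.05, SE 0.12) did not pass. In the cap, Psmc2, an ATPase, rose from 82.3 to 121 CPM (0.56, SE 0.09, adjusted p = 7.75e-06). The 3 subunits that fell were Psma8 (4.10 to 1.39 CPM, -1.55, SE 0.40) and the chaperones Psmg1 (-0.49, SE 0.13) and Psmg4 (-0.54, SE 0.22). Of the 14 antigen presentation and interferon genes 13 rose, among them B2m (1.59, SE 0.20) and Tap1 (1.25, SE 0.18), and 10 of 16 immune cell markers rose as well, from sums of 154 to 251 CPM at E18.5 to 402 to 819 CPM at 12 weeks in Natural ovaries. Age coincides with the count table, so age and table cannot be told apart, and the part of the immune markers was not tested.

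**Figure D3:**
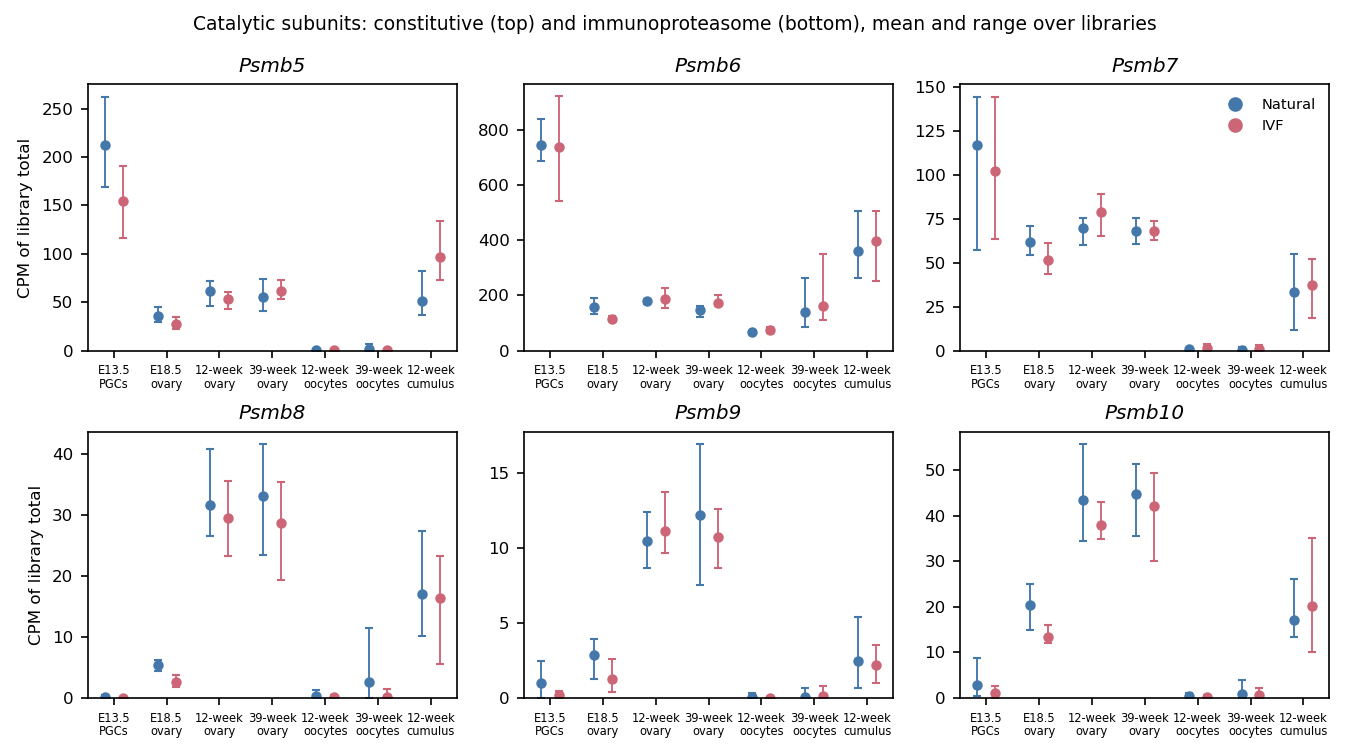
Levels of the constitutive catalytic subunits (Psmb5, Psmb6, Psmb7) and the immunoproteasome subunits (Psmb8, Psmb9, Psmb10) in the 7 tables, Natural and IVF, in CPM of the library total. Points are means and bars the range over libraries, oocyte sets (12 weeks) or single oocytes (39 weeks). The immunoproteasome genes stand highest in adult ovaries and near 0 in PGCs and oocytes, and Psmb5 and Psmb7 stand near 0 in oocytes while Psmb6 does not.

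Between 12 and 39 weeks the Natural ovaries differed at few subunits. Psme4 rose from 100 to 136 CPM (0.44, SE 0.11, adjusted p = 0.00741, edgeR) and Psme1 from 173 to 219 CPM (0.34, SE 0.12, adjusted p = 0.0351), where 10% of all genes rose. Psmd3 fell from 195 to 146 CPM (-0.42, SE 0.11, adjusted p = 0.00745), and Psma3 (-0.29, SE 0.09), Psmd14 (-0.36, SE 0.11) and Psma4 (-0.28, SE 0.09) fell too, where 11.6% of all genes fell. The count of 4 lower subunits became 1 or 2 without 12-week Natural 1, 2 or 4 or 39-week Natural 3, 4 or 5, and 7 without E18.5 IVF 3 or 39-week IVF 1. The count of 2 higher subunits became 1 without 12-week Natural 1 or 3 or 39-week Natural 1 or 3. All 8 oviduct and epithelium markers fell between these ages in Natural ovaries (median -3.98), and their part was not tested.

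In E13.5 PGCs no subunit was called, where no gene of 12763 was, and none had an unadjusted p below 0.05, where 1.44% of all genes were higher and 1.29% lower. The sign was negative for 39 of 46 tested subunits (median -0.16, all genes -0.04). Subunit levels varied widely within each group. Psmb5 measured 339, 134, 246 and 184 CPM in Natural and 214, 111, 104, 195 and 159 CPM in IVF (-0.53, SE 0.30). Psmb6 measured 1085, 592, 741 and 683 CPM in Natural and 1034, 502, 605, 934 and 675 CPM in IVF, and Psmb7 170, 45.4, 145 and 139 CPM and 135, 58.9, 80.9, 174 and 81.0 CPM. Natural 2 and IVF 2 were the lowest libraries of their groups for Psmb6 and Psmb7. The smallest p belonged to Psmb5, Psmg2 (-0.49) and Psmc5 (-0.47, SE 0.34), all with an adjusted p of 1 (edgeR).

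Reads of immunoproteasome genes were few in PGCs, and of the 3 Psmb10 alone passed the filter on low counts (-1.21, SE 0.98). Psmb8 had 2 reads in Natural 4 and 0 in the other 8 libraries, Psmb9 had 0 to 20 reads and Psmb10 0 to 71 reads per library. Psmb11 had 0 reads in all 9 libraries and was not detected at this depth. Psma8 measured 21.8 to 32.2 CPM in Natural and 24.7 to 33.6 CPM in IVF, the highest level of this germ cell subunit in the 7 tables. Psme1 measured 129 to 261 CPM in Natural and 148 to 330 CPM in IVF, Psme2 164 to 248 and 137 to 300.1 CPM, Psme3 87.4 to 150 and 104 to 149 CPM, and Psme4 40.1 to 95.2 and 41.9 to 92.8 CPM. The groups overlapped for each of these genes.

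In 12-week oocytes, summed into 5 Natural and 5 IVF sets by their library names, no subunit was called, where 0.0208% of 14444 genes were called higher and 0.00692% lower. The sets were 35_1, 35_3, 92_3, 92_4 and 92_5 in Natural and 126_2, 126_3, 126_4, 127_2 and 127_3 in IVF. Sets that share a first field may not be independent, and this field cannot be told apart from conception. None of the 44 tested subunits had an unadjusted p below 0.05 in either direction, where 3.95% of all genes were higher and 2.72% lower. The smallest p belonged to Psmb7 (0.96, SE 0.50, adjusted p = 0.778, edgeR), Psmd10 (0.27, SE 0.15) and Psma5 (0.40, SE 0.26). Psmb7 measured 0.441, 0.409, 0.982, 1.18 and 1.07 CPM in Natural and 0.667, 1.26, 3.01, 2.28 and 0.773 CPM in IVF sets. Psmb5 was as low, at 0.307 to 2.02 CPM in Natural and 0.469 to 1.20 CPM in IVF. Psmb6, which exceeds both per length as well (36.1 CPM per kb against 1.13 and 0.232 in Natural), measured 72.5, 68.5, 78.2, 70.3 and 64.2 CPM in Natural and 79.2, 71.6, 59.4, 83.1 and 65.7 CPM in IVF. Psma7 measured 834 to 1167 CPM in Natural and 534 to 1143 CPM in IVF, and the nuclear activator Psme3 249 to 360 and 234 to 346 CPM. Psme4 measured 55.5 to 81.8 and 46.7 to 75.4 CPM, whereas Psme1 and Psme2 stayed below 5 CPM in all 10 sets.

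Single oocytes, in CPM of their own totals, gave the same picture. Psmb6 was detected in all 76 oocytes, with medians of 66.3 CPM in Natural and 69.6 CPM in IVF, and Psme3 had medians of 257 and 269 CPM. Psmb5 was at 0 in 13 of 36 Natural and 12 of 40 IVF oocytes, and Psmb7 in 11 and 5. Psmb8 was at 0 in 27 of 36 Natural and 30 of 40 IVF oocytes, Psmb9 in 32 and 37, and Psmb10 in 29 and 28. Set 92_5 held 56 of the 81 Natural reads of Psmb8. Psmb11 had 109 reads in Natural and 91 in IVF oocytes, at most 0.915 CPM in a set, and Psma8 at most 0.568 CPM.

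The 12-week cumulus cells gave no called subunit with the library set as a covariate, where 0.00973% of 10280 genes were called lower and none higher. At an unadjusted p below 0.05, 3 of 46 subunits were higher, where 3.11% of all genes were, and none lower, where 2.97% of all genes were. Psmb5 had the smallest p (0.82, SE 0.22, adjusted p = 0.389, edgeR). It measured 40.1, 48.0, 56.5, 32.3 and 90.8 CPM in Natural 1 to 5 and 95.1, 116, 95.7, 73.9 and 89.6 CPM in IVF 1 to 5. Only Natural 5 reached the IVF range, and this library carries a name that oocytes labelled IVF share. Psma2 measured 102 to 169 CPM in Natural and 138 to 187 CPM in IVF (0.40, SE 0.16), and Psmg4 had 1.03 (SE 0.46). Without the filter on low counts Psmb5 was called (0.81, adjusted p = 0.012). All 7 tested constitutive beta subunits and 6 of 7 alpha subunits had a positive sign, and 15 of the 20 Psmc and Psmd genes a negative one.

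Parts of the cumulus core differed between library sets. In the libraries whose names spell out group and cell type (Natural 1 and 2, IVF 4 and 5), Psmb6 measured 475 to 545 CPM and Psma7 719 to 855 CPM. In those named by a number code (Natural 3 to 5, IVF 1 to 3), Psmb6 measured 209 to 344 CPM and Psma7 205 to 329 CPM. Psmb7 went the other way, at 12.5 to 28.1 CPM and 37.4 to 59.1 CPM. Psmb8 measured 19.3, 13.3, 10.8, 21.9 and 19.4 CPM in Natural and 4.93, 17.4, 15.2, 23.6 and 21.1 CPM in IVF, Psmb10 11.3 to 28.2 and 10.6 to 36.0 CPM, and Psmb9 0.699 to 4.30 and 0.850 to 3.61 CPM. Immune cell markers summed to between 116 and 4772 CPM over the 10 libraries, and their part in the immunoproteasome values was not tested. Psme1 measured 135 to 240 and 145 to 216 CPM, Psme2 84.3 to 140 and 76.4 to 151 CPM, Psme3 27.4 to 54.8 and 24.6 to 53.2 CPM, and Psme4 13.2 to 20.9 and 12.3 to 31.0 CPM in Natural and IVF.

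The 39-week oocytes are single cells that no label ties to an animal, so each group is 1 sample and no test was made. Counts were pooled per group, and exact Poisson intervals at the 95% level cover counting error only. Of the counts above 0 in these oocytes 69.0% were even. The share was 73.2% in 12-week oocytes, 67.3% in cumulus cells and 56.5 to 59.5% in ovaries and PGCs. Reads counted in pairs would make the intervals too narrow, and this was not tested. Of 38 subunits with a mean of at least 1 CPM, 3 were at least 2-fold higher in IVF, where 8.17% of 11318 genes were, and 1 at least 2-fold lower, where 17.5% of all genes were. Psma6 measured 1.78 CPM in Natural (interval 1.54 to 2.05) and 4.57 CPM in IVF (4.26 to 4.89). Psmc4 measured 5.32 CPM (4.89 to 5.77) and 11.5 CPM (11.0 to 12.0), and Psmg3 2.40 and 5.84 CPM. Psmf1 measured 69.9 CPM (68.3 to 71.5) in Natural and 32.0 CPM (31.1 to 32.8) in IVF. Over single oocytes Psmf1 ran from 24.2 to 210 CPM with a median of 39.8 in Natural, and from 19.5 to 45.8 CPM with a median of 32.8 in IVF, so the ranges overlapped. The highest oocyte, Natural 9, held 3855 reads of Psmf1, and without it the pooled Natural level was 41.2 CPM, 1.29-fold above IVF, so that the gene no longer reached 2-fold. Psmb8 was then the 1 subunit counted as lower (1.92 CPM in Natural and 0.179 CPM in IVF). With all oocytes it measured 1.59 and 0.179 CPM and lay under the minimum mean of 1 CPM. It therefore entered the count through its Natural level alone, and did so without Natural 1 or Natural 2 as well. Psma6 and Psmg3 were under 2-fold without IVF 8 (1.97-fold and 1.79-fold), and Psmc4 without Natural 6, Natural 9 or IVF 10 (1.92-fold, 1.80-fold and 1.99-fold). The count of 3 became 6 without Natural 8 and 1 without IVF 8, and the count of 1 became 2 without Natural 1, Natural 2 or IVF 10.

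Psma7, Psmb6 and Psme3 were among the abundant subunits in 39-week oocytes too. Psma7 measured 565 CPM in Natural and 1004 CPM in IVF, Psmb6 141 and 177 CPM, Psme3 87.7 and 88.9 CPM, and Psme4 72.9 and 62.0 CPM. Over single oocytes Psma7 ran from 75.4 to 1156 CPM with a median of 710 in Natural. In IVF it ran from 568 to 1670 CPM with a median of 1033, so the ranges overlapped. The pooled Natural values include Natural 6 and Natural 9, with oocyte markers of 2474 and 4488 CPM. Psmb5 had 128 reads in Natural and 67 in IVF, and Psmb7 44 and 149, at 0.374 to 1.19 CPM. Psmb8 had 172 reads in Natural, of which Natural 4 held 68 (11.4 CPM), and 32 in IVF, Psmb10 had 58 and 67, Psmb9 6 and 20, and Psmb11 59 and 119. Psme1 measured 1.60 and 1.32 CPM and Psme2 1.52 and 2.18 CPM. Psma8 had 0 reads in Natural, which allows up to 0.0342 CPM, and 3 in IVF. Markers of other cells differed between these oocytes. Immune cell markers summed to 7.86 to 305 CPM in Natural (highest in Natural 4, the oocyte with the most Psmb8 reads) and 5.67 to 43.2 CPM in IVF, with Cd3e at 0 in both groups. Natural 7, with the next most Psmb8 reads (49), had 12.3 CPM of immune cell markers. Erythroid markers summed to 116 to 22130 CPM in Natural, with a median of 1944, and 3.05 to 31425 CPM in IVF, with a median of 181. Oocyte markers ran from 2474 to 46470 CPM in Natural and from 20839 to 42224 CPM in IVF, and the part of these markers in the subunit values was not tested.

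Natural PGCs and Natural oocytes differed in which subunits were abundant. In a joint fit of the low-input tables, 33 of 48 subunits were lower in Natural 12-week oocytes than in Natural PGCs, where 39.4% of all genes were, and 11 higher, where 37.4% of all genes were. The median was -1.81, against -0.17 over all genes, and CPM in the next sentences are those of this joint scaling. The PA28 genes fell, Psme2 from 116 to 2.72 CPM (-5.39, SE 0.35, adjusted p = 4.51e-14, edgeR) and Psme1 from 115 to 3.81 CPM (-4.91, SE 0.50), while Psme3 rose from 70.8 to 479 CPM (2.76, SE 0.25, adjusted p = 3.93e-11) and Psme4 from 37.9 to 113 CPM (1.57, SE 0.28). In the core, Psmb5 fell from 120 to 1.75 CPM (-6.15, SE 0.44), Psmb7 from 66.3 to 1.36 CPM (-5.60, SE 0.54) and Psmb6 from 415 to 118 CPM (-1.81, SE 0.26), while Psma7 rose from 228 to 1650 CPM (2.85, SE 0.45). In the cap all 6 ATPases fell (Psmc3 -3.35, SE 0.24), as did Psmd6 (-3.31, SE 0.25). Psmd9, a chaperone of cap assembly, rose from 8.88 to 260 CPM (4.88, SE 0.39, adjusted p = 3.42e-12), and Psmd3 (2.27, SE 0.27), Psmd1 (1.27, SE 0.30), Psmd11 (1.38, SE 0.25) and Psmd4 (0.63, SE 0.27) rose as well. Psma3 fell from 229 to 9.93 CPM (-4.52, SE 0.31) and Psma8 from 14.4 to 0.345 CPM.

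The low-input contrast depended on how libraries were scaled. With library totals alone 39 subunits were lower and 4 higher, Psme4 turned to -0.21 (adjusted p = 0.553), and the median of the subunits was -3.44 while that of all genes was -1.87. With upper-quartile factors these medians were -2.27 and -0.63, and with RLE factors -1.60 and 0.04, so the subunits' median lay below that of all genes under each of these scalings. Cell type coincides with the count table here. The low-input protocol reverse-transcribed polyadenylated RNA, so RNA without a poly(A) tail is not in these levels. Tail length was not tested.

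Natural cumulus cells, which surround the oocyte, were compared with the same Natural oocyte sets. Of 48 subunits 31 were higher in cumulus cells, where 37.6% of all genes were, and 11 lower, where 41.9% of all genes were. The lower ones were led by Psme3 (37.6 CPM in cumulus cells and 479 in oocytes, -3.67, SE 0.24, adjusted p = 1.99e-14, edgeR), Psmd9 (-4.70, SE 0.36), Psmd1 (-3.55, SE 0.31), Psmd3 (-2.93, SE 0.26) and Psme4 (-2.76, SE 0.28). The higher ones were led by Psme2 (110 CPM and 2.72 CPM, 5.31, SE 0.35, adjusted p = 2.05e-14), Psmc3 (3.51, SE 0.23), Psmb4 (4.26, SE 0.35), Psmb5 (54.6 CPM and 1.75 CPM, 5.01, SE 0.41) and Psma3 (3.54, SE 0.29). Psmb8 measured 17.2 CPM in cumulus cells and 0.564 CPM in oocytes, and Psmb10 18.0 and 0.579 CPM, and both were called higher in cumulus cells. Both low-input contrasts use the same oocyte sets.

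How evenly the complex was represented was described for 31 constitutive subunits of the core and cap, leaving out Psma8, Psmb11 and the cap chaperones Psmd5, Psmd9 and Psmd10, as unscaled CPM per kilobase of annotated exons in Natural samples. In the 12-week ovary the most abundant of them (Psmb4, 110 CPM per kb) stood 7.08-fold above the least abundant (Psma3, 15.6 CPM per kb), and the SD of the log2 levels was 0.842. The E18.5 and 39-week ovaries had SDs of 0.860 and 0.865. PGCs had an SD of 1.04, from Psmd11 at 26.0 to Psmd2 at 406 CPM per kb, and cumulus cells 1.25, from Psmd1 at 5.88 to Psmb6 at 192 CPM per kb.

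In oocytes the spread was wider. The SD was 2.39 in the 12-week sets, from Psmb7 at 0.232 and Psmd13 at 0.347 to Psma7 at 307 CPM per kb, a 1326-fold range, and the 3 most abundant subunits made up 56.4% of the sum, against 20.7% in the 12-week ovary. The 39-week oocytes had an SD of 2.46. IVF samples had SDs of 2.31 in 12-week and 2.56 in 39-week oocytes and 0.817 at E18.5. By set the SD ran from 2.19 to 2.70 in Natural and from 1.98 to 2.67 in IVF, so the groups overlapped. Ovary and oocyte libraries were made with different protocols, so cell type and protocol cannot be told apart between them. These values are of polyadenylated RNA and not of protein.

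**Figure D4:**
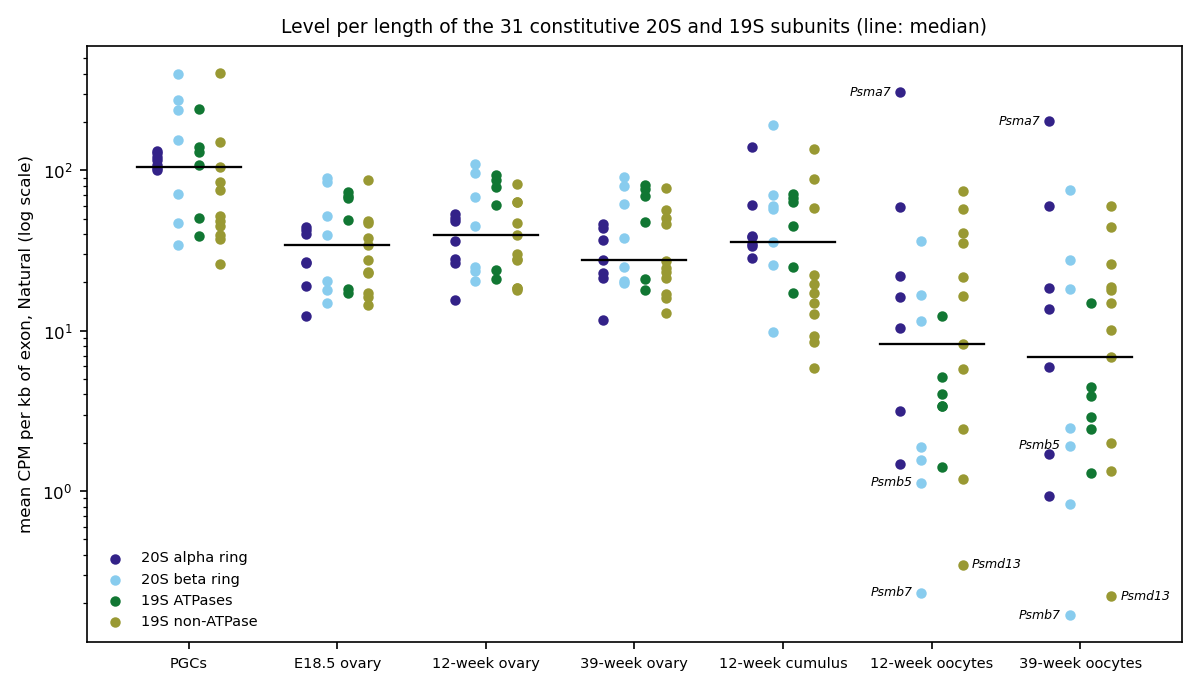
Level of each of 31 constitutive core and cap subunits in Natural samples, in CPM per kilobase of exon on a log scale, for the 7 tables. Each point is 1 subunit, as a mean over libraries, coloured by its place in the complex, and lines are medians. Points span 7.08-fold in the 12-week ovary and 1326-fold in the 12-week oocyte sets.

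Among the catalytic subunits, the immunoproteasome share was computed per library as the level per kb of Psmb8, Psmb9 and Psmb10 in percent of those plus Psmb5, Psmb6 and Psmb7. In ovaries it was 9.08% ± 0.46 (SD, n = 4) in Natural and 7.64% ± 1.08 (SD, n = 6) in IVF at E18.5, with ranges of 8.71 to 9.69% and 6.45 to 9.12%. At 12 weeks it was 17.0% ± 2.88 (SD, n = 4) and 16.0% ± 2.95 (SD, n = 5), and at 39 weeks 19.6% ± 3.45 (SD, n = 5) and 16.7% ± 2.98 (SD, n = 5). Cumulus cells had means of 5.86% in Natural and 4.85% in IVF (n = 5 each), while PGCs and 12-week oocyte sets were below 1% on average in both groups. Single 39-week oocytes had means of 1.70% in Natural and 0.591% in IVF, with highest values of 6.28% and 2.07%. At each age and cell type the Natural and IVF ranges overlapped.

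Summed levels are in CPM of library totals, and the contrast of Natural oocytes with PGCs depended on that choice. Its subunit median was -3.44 with library totals and -1.81 with TMM, against -1.87 and -0.17 over all genes. The sums were not rescaled. By library totals, the summed level of all 49 members set PGCs apart from every other table. It was 10891 ± 1829 CPM (SD, n = 4) in Natural and 10342 ± 2172 CPM (SD, n = 5) in IVF PGCs. At E18.5 it was 3836 ± 407 CPM (SD, n = 4) in Natural and 3351 ± 184 CPM (SD, n = 6) in IVF ovaries, and the ranges overlapped (3466 to 4282 and 3056 to 3522 CPM). For the 20S core alone they did not, at 989.6 to 1277 CPM in Natural and 851.7 to 947.7 CPM in IVF, whereas the activators summed to 382 to 410 and 396 to 429 CPM. At 12 weeks the sums were 4564 ± 341 (SD, n = 4) and 4691 ± 341 CPM (SD, n = 5), and at 39 weeks 4015 ± 346 (SD, n = 5) and 4392 ± 131 CPM (SD, n = 5).

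Oocytes and cumulus cells had sums near those of the ovaries, again by library totals. The 12-week oocyte sets summed to 3217 ± 268 CPM (SD, n = 5) in Natural and 3381 ± 340 CPM (SD, n = 5) in IVF, and cumulus cells to 4290 ± 246 (SD, n = 5) and 4609 ± 576 CPM (SD, n = 5). Single 39-week oocytes ranged from 1711 to 3632 CPM in Natural and from 2515 to 4287 CPM in IVF. Psma7 alone measured 834 to 1167 TMM-scaled CPM in the Natural oocyte sets.

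**Figure D5:**
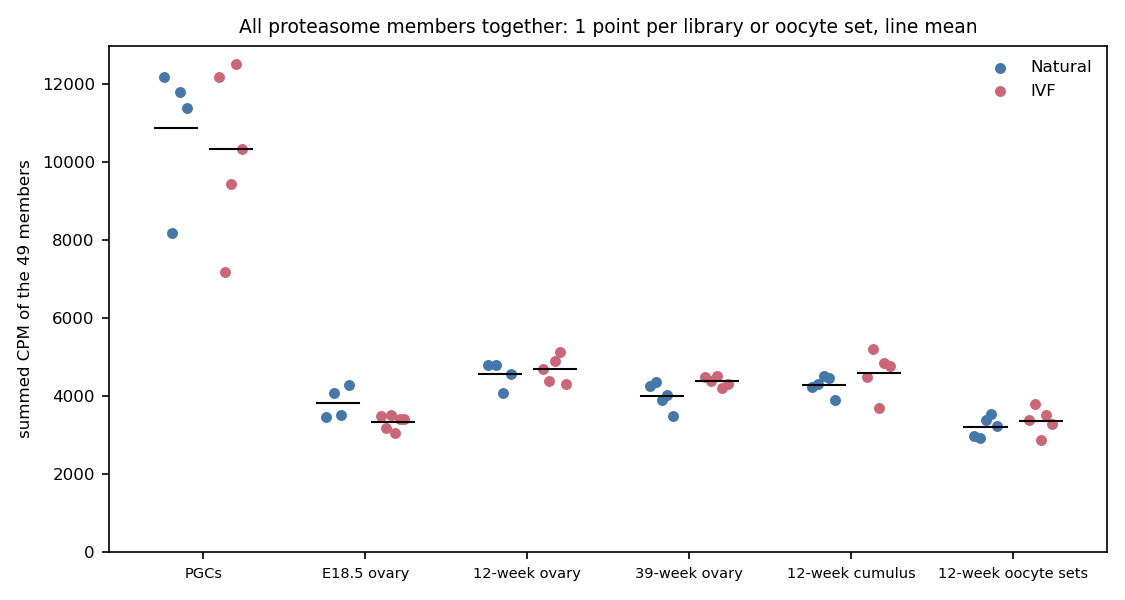
Sum of CPM of the library total, without TMM scaling, over the 49 proteasome genes in each library or 12-week oocyte set. Natural and IVF are shown, with a line at the group mean. PGC libraries lie between 7193 and 12516 CPM, above every ovary, oocyte set and cumulus library.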

How the data were processed

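Ovaries (KAPA stranded mRNA libraries) and PGCs, oocytes and cumulus cells (SMART-seq libraries, 100 cells per PGC or cumulus library) were sequenced. The values are raw read counts per gene, which the authors made with featureCounts after alignment with STAR to mm10 and deposited as 7 tables; the submitters' processing notes name STAR 2.3.0e, Trimmomatic 0.32, featureCounts 1.5.0 and DESeq2. The tables held 143 libraries. Totals were 6995713 to 14830788 at E18.5, 2839022 to 43363799 and 18079970 to 38751638 in 12-week and 39-week ovaries, 4364495 to 8675189 in PGCs, 839781 to 10879166 and 2820748 to 31126357 in single 12-week and 39-week oocytes, and 2532824 to 6345249 in cumulus cells. No pair of libraries held identical values.

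Counts were tested with edgeR 4.0.16 in R 4.3.3 (filterByExpr, TMM, quasi-likelihood F test), with Benjamini-Hochberg adjustment over all genes tested in a fit. Single 12-week oocytes were summed per library set (the first 2 fields of the library name). The cumulus fit held the naming scheme of the libraries as a covariate, since each scheme covers both groups. Ages and cell types were compared in joint fits of the 3 ovary tables and of the PGC, 12-week oocyte and cumulus tables. The 39-week oocytes were pooled and not tested. Alternatives were DESeq2 1.42.0, other size factors, other filters on low counts, a replicate block and leaving out each library. Scripts were tested on simulated counts. Genes were named by rule: the catalytic and immunoproteasome subunits, Psma8, Psmb11 and the activators in each table, and the called members (or those with the smallest p) in each comparison; other names were chosen after their values were seen. The members and gene lists were chosen with earlier results of these data known. Upstream sequences are from RefSeq, GRCm38.p6.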

Additional observations from a re-analysis of the deposited data

Results flagged for a closer look

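Of 162 groups of 4 to 10 values examined, 9 held a library whose distance from the nearest other one was large against the range of the group, and chance alone gives about 1 in 20. In E18.5 IVF ovaries Psme1 was 119 CPM in IVF 3, against 94.0 to 99.4 CPM in the others. In 39-week IVF ovaries, IVF 1 was high for Psmd3 (217 CPM, others 148 to 168 CPM) and Psmb6 (213 CPM, others 156 to 167 CPM), IVF 3 was high for Psme1 (301 CPM, others 179 to 212 CPM) and IVF 5 was low for Psmb10 (30.5 CPM, others 43.4 to 48.0 CPM). In PGCs, Natural 2 was low for Psmc5 (171 CPM, others 407 to 425 CPM) and Psme3 (87.4 CPM, others 143 to 150 CPM), and IVF 4 was high for Psme2 (300.1 CPM, others 137 to 179 CPM). Among Natural oocyte sets, 92_5 was high for Psmb10 (0.989 CPM, others 0.0909 to 0.249 CPM).

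The IVF effect on Psmd3 differed between 39 and 12 weeks by 0.54 on the log2 scale (SE 0.15, adjusted p = 0.0489, edgeR interaction). It was below 0 at 12 weeks and above 0 at 39 weeks, and neither effect passed the test by itself. The oviduct and epithelium markers had the same change of sign between these ages, and luteal markers changed the other way by median sum. The part of these markers was not tested.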

How the results depend on the processing

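At E18.5 the 6 lower subunits became 16 with DESeq2 and the 1 higher subunit 0 without a filter on low counts. Leaving out single ovaries gave 0 to 18 lower (18 without Natural 1, 0 without Natural 2 or 4) and 0 to 1 higher, with a median of -0.33 to -0.22. Without a filter 1 cumulus subunit was called higher. The other IVF comparisons tested within 1 table called 0 subunits under every alternative run. In the ovary interaction of 12 weeks against E18.5, the 0 higher subunits became 5 with DESeq2 and 0 to 2 when single ovaries were left out (2 without 12-week IVF 2). In that of 39 against 12 weeks, the 1 higher subunit became 0 with RLE size factors, 0 without a filter and 0 to 2 in the omissions, with 0 in 20 of 29. Natural ovaries at 39 against 12 weeks had 2 higher subunits, which became 1 without a filter, 1 with at least 10 counts in every sample and 1 to 3 in the omissions, and 4 lower, which became 7 with at least 10 counts and 1 to 7 in the omissions. For oocytes against PGCs, library totals gave 4 higher in place of 11, and Psme4 turned to -0.21. In 39-week oocytes the 3 higher subunits became 11 at 1.5-fold, 7 without a filter and 1 to 6 in the omissions (6 without Natural 8, 1 without IVF 8), and the 1 lower became 3 without a filter and 1 to 2 in the omissions, with Psmb8 in place of Psmf1 without Natural 9. Psmb8 passed the minimum mean there through its Natural level alone. The cause of these changes was not tested.

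With a replicate block, which drops IVF 5 and 6 at E18.5 because no Natural ovary has their numbers, 0 subunits were lower and 0 higher there. The block changed no call at 12 or 39 weeks, in PGCs or in cumulus cells. With the block the PGC subunit median was -0.08 in place of -0.16. Deviations of same-numbered libraries correlated at -0.13 to 0.01 at E18.5, -0.36 to 0.25 at 12 weeks and -0.01 to 0.40 at 39 weeks. The correlations were -0.07 to 0.54 in PGCs and -0.32 to 0.17 in cumulus cells. Natural PGC libraries 1, 2 and 4, 39-week ovaries 1, 2 and 5 and 12-week ovary 1 matched best with the IVF library of their own number. The labels name no pairs, so the numbers were not taken to pair libraries, and these correlations cannot settle it. No paired analysis was possible for 12-week oocytes because their sets carry no replicate number in the labels.

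Age and cell type coincide with the count table, and the tables of low-input libraries differ in depth. Ovary libraries were made with another protocol than the low-input libraries. Tissue and protocol therefore cannot be told apart where sums or evenness are set side by side. Low-count subunits limit the precision, and counting intervals leave out amplification.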
